A study of Mus musculus with 20 samples.

Results

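The 10 genes described here are a part of the core and output genes of the circadian clock, namely Clock, Npas2, Per1, Per2, Per3, Cry1, Nr1d1, Nr1d2, Dbp, and Tef. They were chosen by name, through the symbols that GENCODE gives to the Ensembl gene identifiers, as 10 of the 19887 genes counted, and all 10 passed the filter on low counts, which kept 15348 genes. RNA came from sections of the emptied cecum of 20 C57BL/6 mice, 5 in each of 4 diet groups, and 1 RNASeq library was made per mouse. All 20 mice were weaned at 3 to 4 weeks of age onto the Total Western Diet (TWD), a rodent diet built to match the nutrient profile of a Western human diet, and ate it for 6 weeks. For the last 3 weeks the groups ate TWD with 0, 2, 5, or 10% by weight of raw potato starch (RPS), a starch that largely escapes digestion in the small intestine and is fermented by microbes in the cecum and colon. The 0% RPS mice were thus on the base diet that every group shared. The mice lived under a 12-h light and 12-h dark cycle. The time of day at which each cecum was collected is not given in the sources used here, and therefore no mouse could be placed on a clock time. Mice are called 1 to 5 within a diet by ascending mouse number, which is only a name.

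The mammalian clock is a loop of transcription and repression that runs in most cells, including those of the gut wall. A dimer of BMAL1 with CLOCK, or with its paralog NPAS2, binds E-box sequences and drives the Per and Cry genes, whose proteins return to the nucleus and silence the dimer. A second arm is formed by the nuclear receptors REV-ERBα and REV-ERBβ, the products of Nr1d1 and Nr1d2, which repress Bmal1, Npas2, and Clock through RORE sequences. Output runs in part through the PAR bZIP factors DBP and TEF, which bind D-box sequences and are opposed by the repressor NFIL3. In peripheral tissues Dbp, Tef, Per3, Nr1d1, and Nr1d2 peak in a different part of the day from Bmal1, Npas2, and Cry1, and feeding time can shift the phase of the gut clock.

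Libraries held between 14967798 and 42687283 counts, so that 3 counts corresponded to between 0.0698 and 0.19 CPM (counts-per-million). All 7 markers of cecal epithelium were counted in every mouse, with Epcam between 1520 and 2120 CPM and Vil1 between 1060 and 1600 CPM. The 5 smooth muscle markers were also high in every mouse, with Myh11 between 735 and 2910 CPM, so the libraries held muscle as well as epithelium. In bulk tissue, fewer cells of a type and less RNA per cell cannot be told apart. A set of 3 libraries stood apart from the other 17, with 13.0% (0% RPS mouse 5), 13.8% (2% RPS mouse 3), and 15.4% (5% RPS mouse 4) of counts on mitochondrial genes against 9.0 to 11.5% in the rest. For Cry1, for the spread of Dbp and Clock, and for the correlations between pairs of the 10 genes described over all diets, values without these 3 libraries are also given.

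The upstream sequences below show where the letters of the E-box and of the D-box, the elements through which clock proteins are known to act, occur near the start of these genes. The 250 bases before the start of the canonical transcript were read from GRCm39 for all 10 genes, on the strand of the gene. The E-box was searched as CACGTG, which reads the same on both strands, and was found in 3 of the 10 windows and in 6.26% of the windows of 21770 protein-coding genes. The D-box was searched as TTATGTAA or TTACGTAA on both strands, and was found in 2 of the 10 windows and in 0.937% of all windows. The 5 windows that held a match are printed 5′ to 3′ with the matched letters in capitals. Those of Per1 (chr11:68989018-68989267, plus strand) and Tef (chr15:81695365-81695614, plus strand) each held 1 E-box, as did that of Cry1 (chr10:85020950-85021199, minus strand), while those of Per2 (chr1:91387047-91387296, minus strand) and Per3 (chr4:151129141-151129390, minus strand) held 1 and 2 D-boxes.
Per1: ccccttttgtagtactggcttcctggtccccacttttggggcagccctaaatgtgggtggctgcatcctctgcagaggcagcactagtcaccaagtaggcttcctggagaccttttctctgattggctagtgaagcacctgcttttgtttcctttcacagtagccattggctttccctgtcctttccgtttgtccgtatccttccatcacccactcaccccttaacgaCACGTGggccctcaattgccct
Tef: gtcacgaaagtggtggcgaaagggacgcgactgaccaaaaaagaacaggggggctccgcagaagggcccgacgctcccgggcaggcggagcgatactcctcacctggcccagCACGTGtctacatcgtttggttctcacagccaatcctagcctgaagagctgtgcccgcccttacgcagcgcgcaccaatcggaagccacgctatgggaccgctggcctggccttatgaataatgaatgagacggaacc
Cry1: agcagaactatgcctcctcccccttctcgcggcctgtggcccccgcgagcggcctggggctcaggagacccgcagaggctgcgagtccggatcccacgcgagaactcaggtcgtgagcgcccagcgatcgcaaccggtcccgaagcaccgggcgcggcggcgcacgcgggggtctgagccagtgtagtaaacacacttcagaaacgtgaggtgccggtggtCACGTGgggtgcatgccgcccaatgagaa
Per2: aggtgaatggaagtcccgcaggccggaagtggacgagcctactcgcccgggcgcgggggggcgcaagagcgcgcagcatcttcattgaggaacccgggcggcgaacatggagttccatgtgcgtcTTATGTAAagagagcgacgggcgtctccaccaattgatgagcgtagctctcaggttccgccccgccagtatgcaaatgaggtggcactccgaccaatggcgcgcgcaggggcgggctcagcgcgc
Per3: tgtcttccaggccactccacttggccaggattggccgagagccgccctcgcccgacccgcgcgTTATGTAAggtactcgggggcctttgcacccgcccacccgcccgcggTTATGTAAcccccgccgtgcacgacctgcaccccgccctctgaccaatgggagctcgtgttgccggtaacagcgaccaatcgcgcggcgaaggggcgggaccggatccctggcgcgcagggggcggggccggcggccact

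The E-boxes began 22 bases before the start in Per1, 29 in Cry1, and 138 in Tef. The D-box of Per2 began 125 bases before the start, and those of Per3 began 187 and 140 bases before it. The variant E-box CACGTT, searched on both strands, was found in the windows of Cry1, 48 bases before the start, and Nr1d1, 72 bases before it, against 4.16% of all windows. The core of the RORE, AGGTCA on either strand, was found in the windows of Nr1d2 and Dbp, against 13.1% of all windows. A match describes these letters in this window only, and other starts of the same genes were not read.

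Per kilobase of the canonical transcript, Nr1d1 was the most abundant of the 10 genes, at 38.8 ± 11.8 CPM per kilobase (mean ± SD, n = 20 mice), and Per3 was by far the least abundant, at 0.185 ± 0.0874. Tef (24.2 ± 9.29), Nr1d2 (17.5 ± 4.70), Dbp (13.6 ± 7.77), and Cry1 (12.3 ± 3.71) followed Nr1d1. Per1 (7.33 ± 2.15), Npas2 (7.32 ± 2.18), Per2 (6.64 ± 2.16), and Clock (6.40 ± 0.801) were close together. Within 1 SD of the mean every gene in this order overlapped the next one, with the exception of Clock and Per3. Per3 rested on 5 to 80 counts per library, and its values are correspondingly coarse. Nr1d1 overlaps Thra, Dbp overlaps Sphk2, Clock overlaps Tmem165, and Per3 overlaps Uts2, each on the opposite strand. Clock also overlaps Gm43658, another counted gene, over 4176 bases on the same strand. The library kit marks strand, but whether strand was used in counting is not given in the sources used here.

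**Figure D1:**
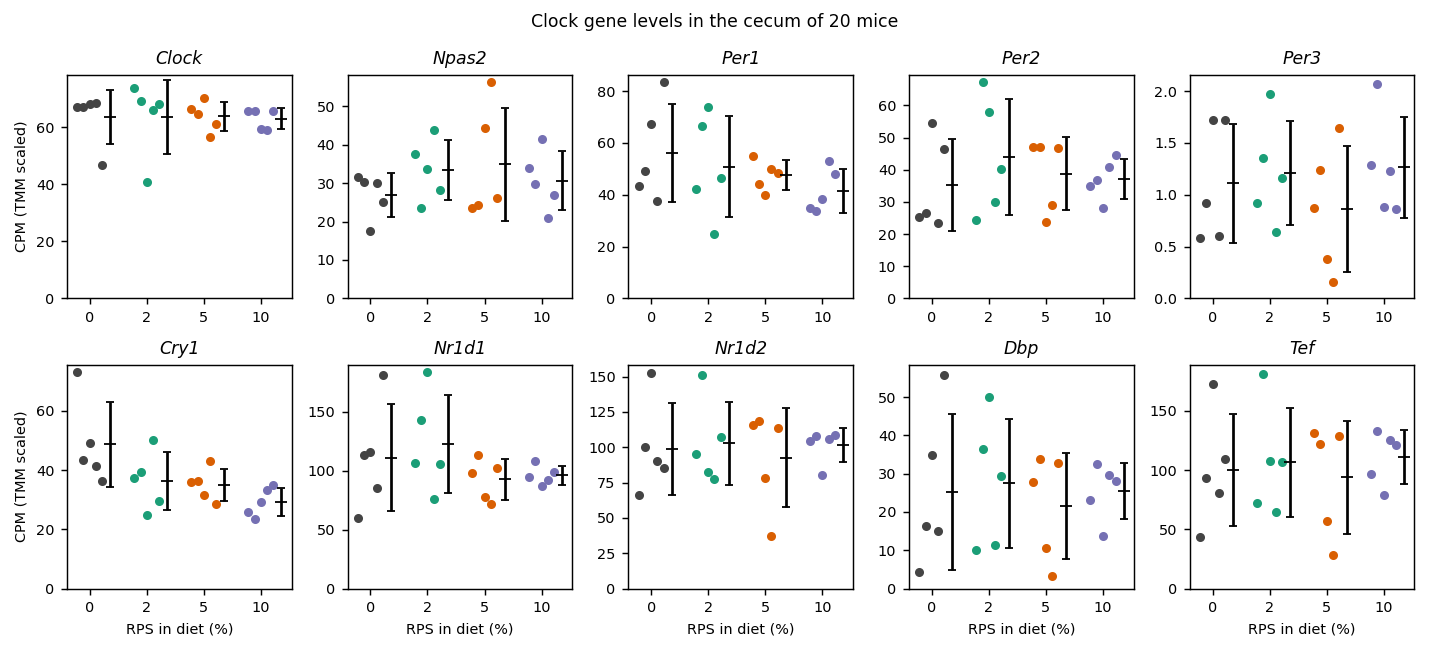
Level of each clock gene in CPM (TMM scaled, linear axes from 0) against RPS in the diet (%). Points are single mice, in the order of mouse 1 to 5 within each diet, and the bar beside them is the mean ± SD (n = 5). Cry1 in the 5 mice fed 10% RPS lies between 23.6 and 34.8 CPM, below all 5 mice fed 0% RPS, while Dbp ranges from 4.26 to 55.8 CPM within the 0% RPS group alone.

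The first question was whether the level of the clock genes followed the RPS content of the diet. Only Cry1 passed the test in any of the comparisons. With 10% RPS against 0% RPS, 1 of the 10 genes was called by edgeR's quasi-likelihood test (Benjamini-Hochberg adjusted p at most 0.05 over 15348 genes, and at least 1.5-fold), against 1.04% of all genes tested, and Cry1 was lower, as were 0.495% of all genes. With 5% RPS none of the 10 was called by edgeR or by DESeq2 (0.195% of all genes called by edgeR), and 1, Cry1, was lower at an unadjusted p under 0.05, as were 6.54% of all genes. With 2% RPS none of the 10, and none of all 15348 genes, was called by edgeR, DESeq2 called none of the 10, and again only Cry1 had an unadjusted p under 0.05, where 3.19% of all genes were lower. The median log2 fold change of the 10 genes with 10% RPS was 0.02, beside 0.00405 over all genes tested. The 3 comparisons share the 5 mice fed 0% RPS and are not independent of each other.

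Cry1 (ENSMUSG00000020038, GRCm39 chr10:84967560-85021252, minus strand), which encodes the cryptochrome that represses the CLOCK and BMAL1 dimer, was downregulated in mice fed 10% RPS. In mice 1 to 5 it stood at 73.1, 43.6, 49.1, 41.5, and 36.4 CPM with 0% RPS and at 25.7, 23.6, 29.1, 33.1, and 34.8 CPM with 10% RPS. All 5 mice fed 10% RPS were below all 5 fed 0% RPS, a separation in this direction shown by 3.2% of the genes tested. The log2 fold change was -0.74 (SE 0.19), a level of 0.600 of that with 0% RPS, with an adjusted p of 0.0487 by edgeR. With 2% RPS the mice stood at 37.2, 39.4, 24.9, 50.2, and 29.5 CPM, and with 5% RPS at 35.9, 36.2, 31.6, 42.9, and 28.6 CPM. Both of these groups overlapped the 0% RPS mice. Their log2 fold changes were -0.43 (SE 0.19, adjusted p = 0.849) and -0.47 (SE 0.19, adjusted p = 0.259). With each mouse left out in turn they ran from -0.57 to -0.23 and from -0.56 to -0.28. Over the 4 diets the slope of Cry1 was -0.065 log2 units per 1% RPS (SE 0.018, adjusted p = 0.0683 by edgeR), and the test for any difference among the diets gave an adjusted p of 0.212. In these tests 1.11% and 0.0912% of all genes passed, and none of the 10 did. One of the 10, Cry1, had an unadjusted p under 0.05 in each, against 9.47% of all genes with a downward slope and 11.1% with any difference, and DESeq2 called it in both.

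The call for Cry1 lay close to the threshold. It was kept without 0% RPS mouse 2 (adjusted p = 0.0414) and without 10% RPS mouse 4 (adjusted p = 0.0408), and lost without any one of the other 8 mice, with adjusted p up to 0.145 by edgeR and a log2 fold change that stayed between -0.81 and -0.54. The value nearest to 0 was the one without 0% RPS mouse 1, the mouse with 73.1 CPM. Without the 3 libraries of high mitochondrial share the log2 fold change was -0.82 (SE 0.18, adjusted p = 0.0225). Levels of other cell markers are given here for the same diets. Their sums overlapped between groups, but for smooth muscle, B cells, mesentery fat, and epithelium only through single mice. All 5 smooth muscle markers were estimated higher with 10% RPS, and 1 of them, Actg2, was called. In mice 1 to 5 their sum stood at 2949, 2257, 3079, 2512, and 5293 CPM with 0% RPS. With 10% RPS it stood at 5449, 5283, 6086, 3686, and 4208 CPM. Only 0% RPS mouse 5, with a library of high mitochondrial share, lay within the range of the 10% RPS mice. The 5 B cell markers were all estimated higher and none was called. Their sum stood at 28.4, 184, 5.21, 16.7, and 4.71 CPM with 0% RPS. With 10% RPS it stood at 188, 13.0, 241, 201, and 227 CPM. All 3 markers of mesentery fat were estimated lower and none was called, and a change of fat cannot be read from them. Adipoq and Plin1, which define fat cells, ran over the 20 mice from 0 to 36.1 and from 0 to 17.9 CPM, with log2 fold changes of -0.72 (SE 1.44) and -0.95 (SE 1.33). Most of the summed level of the 3 came from Cidec, which was never below 21.4 CPM, also where the other two were at 0, and stood at 0.510 of its 0% RPS level (adjusted p = 0.0793 by edgeR). Of the 7 epithelial markers 5 were estimated lower and none was called, with Muc2 at 0.666 (adjusted p = 0.172), and the part of fat and epithelium in the Cry1 result was not tested. With the summed smooth muscle markers as a covariate, the Cry1 estimate was -0.59 (SE 0.22, adjusted p = 0.153), and with the summed B cell markers it was -0.79 (SE 0.22, adjusted p = 0.0671).

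The positive arm of the loop showed no change that passed the test. Clock, the histone acetyltransferase partner of BMAL1, was the steadiest of the 10 genes, at 63.6 ± 9.35 CPM with 0% RPS and 63.0 ± 3.59 CPM with 10% RPS (mean ± SD, n = 5). Its log2 fold change was -0.01 with an SE of 0.13. In mice 1 to 5 it stood at 67.2, 67.2, 68.0, 68.5, and 46.9 CPM with 0% RPS and at 73.8, 69.1, 40.7, 66.0, and 68.2 CPM with 2% RPS. The low values, and the lowest of the 5% RPS group (56.7 CPM in mouse 4), are those of the 3 libraries of high mitochondrial share. Npas2, the paralog that can take the place of CLOCK, stood at 31.7, 30.2, 17.6, 29.9, and 25.1 CPM with 0% RPS and at 34.0, 29.9, 41.5, 21.0, and 26.8 CPM with 10% RPS. The groups overlapped, and the log2 fold change was 0.19 (SE 0.25).

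The Period genes, whose proteins form the repressor complex together with the cryptochromes, also overlapped between diets. Per1 was 56.3 ± 18.9 CPM with 0% RPS and 41.5 ± 8.47 CPM with 10% RPS, with a log2 fold change of -0.44 (SE 0.25, adjusted p = 0.33 by edgeR). Per2 was 35.3 ± 14.3 and 37.0 ± 6.26 CPM, with a log2 fold change of 0.07 (SE 0.29). Per3 was 1.11 ± 0.575 and 1.27 ± 0.487 CPM, with a log2 fold change of 0.19 (SE 0.46). Of these, Per1 had the narrowest interval, from -0.93 to 0.05 within 2 SE of the estimate.

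Nr1d1 and Nr1d2, the repressors of the second arm, were likewise not called. Nr1d1 was 110.9 ± 45.4 CPM with 0% RPS, 122.7 ± 41.4 with 2%, 92.6 ± 17.5 with 5%, and 96.0 ± 8.0 with 10% RPS, and its log2 fold change with 10% RPS was -0.21 (SE 0.24). Nr1d2 was 98.9 ± 32.4, 102.7 ± 29.6, 92.7 ± 35.0, and 101.5 ± 12.0 CPM in the same order, with a log2 fold change of 0.04 (SE 0.27). Without 0% RPS mouse 5, the mouse with the highest Nr1d1 level of its group (181 CPM), the Nr1d1 estimate turned to 0.05.

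Dbp and Tef, the output factors that bind D-boxes, had group means that lay close together and mice that differed widely. Dbp was 25.3 ± 20.3 CPM with 0% RPS, 27.4 ± 16.9 with 2%, 21.6 ± 13.9 with 5%, and 25.5 ± 7.39 with 10% RPS. Its log2 fold change with 10% RPS was 0.01 with an SE of 0.63, so that values from -1.25 to 1.27 lie within 2 SE. Tef was 99.97 ± 47.5, 106.4 ± 46.2, 93.8 ± 47.7, and 111.0 ± 22.5 CPM, and its log2 fold change was 0.15 (SE 0.40). For these 2 genes a diet difference smaller than their spread between mice was not detectable with 5 mice per group.

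**Figure D2:**
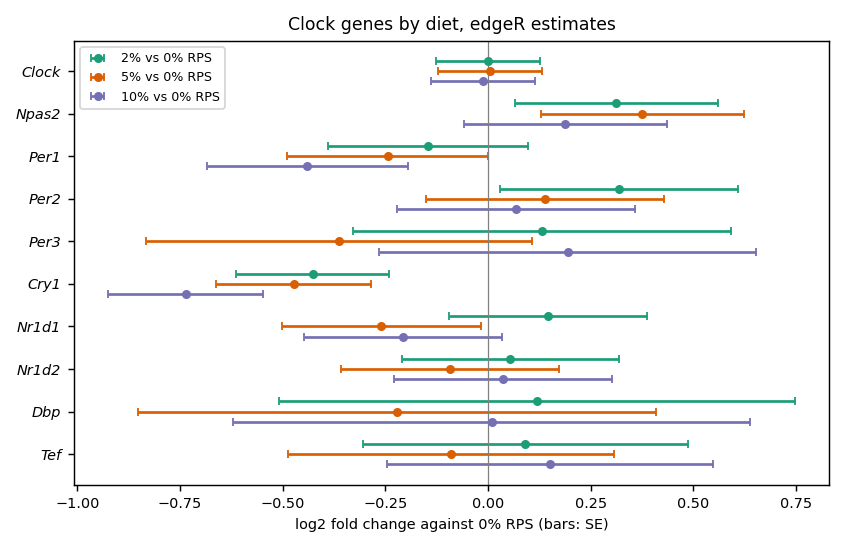
Log2 fold change of each clock gene against 0% RPS (x axis, edgeR estimate), for mice fed 2, 5, and 10% RPS, with bars of 1 SE (5 mice per diet, with the spread estimated over all 20). Cry1 lies below 0 in all 3 comparisons and reaches -0.74 with 10% RPS, and the bars of Dbp are the longest, with an SE of 0.63.

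Of 21 other genes of the clock pathway, listed by role (core loop, output regulators, kinases and ubiquitin ligases that act on PER and CRY proteins, and clock-controlled outputs), all 21 passed the low-count filter and none was called by edgeR in any of the comparisons. With 10% RPS, 3 were higher and 1 was lower at an unadjusted p under 0.05, against 9.74% and 9.75% of all genes. Their median log2 fold change was -0.01. Bmal1 (Arntl), the obligate partner of CLOCK and NPAS2, had a log2 fold change of -0.09 (SE 0.25), and Nfil3, the D-box repressor, one of -0.96 (SE 0.52, adjusted p = 0.315 by edgeR). Nfil3 stood at 16.3 CPM in 0% RPS mouse 1 and at 2.14 to 5.24 CPM in the rest of that group. With 10% RPS it ran from 2.58 to 3.68 CPM.

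The second question was how the clock genes differed among mice on the same diet. Dbp (ENSMUSG00000059824, GRCm39 chr7:45354512-45359627, plus strand) varied most. In mice 1 to 5 it stood at 4.26, 16.2, 35.0, 15.1, and 55.8 CPM with 0% RPS, at 10.2, 36.3, 49.9, 11.3, and 29.4 CPM with 2% RPS, at 27.9, 33.8, 10.6, 3.27, and 32.7 CPM with 5% RPS, and at 23.2, 32.6, 13.7, 29.7, and 28.2 CPM with 10% RPS. Each of the 0, 2, and 5% RPS groups held both low and high mice, and the 10% RPS group held 1 low mouse. After diet means were removed the SD of Dbp was 1.16 log2 units (16 degrees of freedom), and 1.66% of all genes tested, or 0.225% of the 2227 genes within 0.5 log2 units of its level, had a higher one. Without the 3 libraries of high mitochondrial share it was 0.88. Tef had an SD of 0.69, Per3 one of 0.79, and Per2 one of 0.49. Nr1d2 (0.47), Per1 (0.42), Npas2 (0.42), Nr1d1 (0.41), and Cry1 (0.32) followed. These 9 genes were above the median of all genes tested, which was 0.24, and Clock, at 0.22, was below it. Among genes within 0.5 log2 units of the same level, however, 22.4% had a higher SD than Clock, and between 0.225 and 11% had a higher SD than each of the other 9. Without the 3 libraries the SD of Clock was 0.07.

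The spread of most of the 10 genes, and of most genes, was narrower in the mice fed 10% RPS than in those fed 0% RPS. For 9 of the 10 genes the SD was lower with 10% RPS than with 0% RPS, the exception being Npas2 (0.37 against 0.35 log2 units), and for 7 it was the lowest of the 4 diets, against 64.8% and 42.1% of all genes tested. Dbp had an SD of 1.40 with 0% RPS, 1.03 with 2%, 1.44 with 5%, and 0.50 with 10% RPS. For Nr1d1 the corresponding values were 0.59, 0.48, 0.28, and 0.12. The difference in spread was not tested, and the genes are not independent of each other in this respect, as the following correlations show. None of the 3 libraries of high mitochondrial share was from a mouse fed 10% RPS. Without these libraries, which leaves 4 mice in each of the other diets, the SD was lower with 10% than with 0% RPS for 9 of the 10 genes, here with Clock as the exception (0.08 against 0.01), and the lowest of the 4 diets for 6, against 45.3% and 18.4% of all genes tested. The SD of Dbp was then 1.25 with 0% RPS, 0.93 with 2%, 0.79 with 5%, and 0.50 with 10% RPS.

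Within diets many pairs of clock genes were correlated from mouse to mouse, some positively and some negatively. Correlations were taken over the 20 mice on log2 CPM after removal of the diet means, for all 45 pairs of the 10 genes, with p-values from 100000 permutations of mice within diets, 2-sided, adjusted over the 45 relations by Benjamini-Hochberg. Of the 45 pairs, 29 had an adjusted p of at most 0.05, 19 with a positive and 10 with a negative r. By Spearman's rho the number was also 29. Without the 3 libraries of high mitochondrial share it was 24, of which 22 were among the 29, and 40 pairs kept their sign. Both genes of a pair were measured in the same library, so these values also hold whatever the libraries share.

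Among the output factors, the nuclear receptors, and the Period genes, all 21 pairs had a positive r and 19 passed. The exceptions were Nr1d1 with Nr1d2 (r = 0.46, rho = 0.55, permutation p = 0.0577 and 0.0315, adjusted p = 0.0865 and 0.0489, r = 0.53 without the 2 farthest mice, and r = 0.90 without the 3 libraries) and Per1 with Nr1d2 (r = 0.26, rho = 0.32, permutation p = 0.246 and 0.202, adjusted p = 0.284 and 0.259, r = 0.28 without the 2 farthest mice, and r = 0.74 without the 3 libraries). Dbp and Tef had r = 0.91 and rho = 0.86 (permutation p = 4e-05 and 9e-05, adjusted p = 0.000257 and 0.000585), r = 0.83 without the 2 mice farthest from the median of Dbp, and r = 0.97 without the 3 libraries. Tef and Nr1d2 had r = 0.93 and rho = 0.87 (permutation p = 3e-05 and 0.00013, adjusted p = 0.000225 and 0.000585), r = 0.89 without the 2 farthest mice, and r = 0.98 without the 3 libraries. Dbp and Per3, the gene whose upstream window held 2 D-boxes, had r = 0.89 and rho = 0.91 (permutation p = 1e-05 for both, the smallest these permutations can give, adjusted p = 0.000225), r = 0.85 without the 2 farthest mice, and r = 0.78 without the 3 libraries. Dbp and Per2, whose window held 1 D-box, had r = 0.81 and rho = 0.87 (permutation p = 0.00023 and 0.00012, adjusted p = 0.000862 and 0.000585), and r = 0.83 in both of these reduced sets. Dbp and Nr1d1 had r = 0.86 and rho = 0.89 (permutation p = 3e-05 and 2e-05, adjusted p = 0.000225 for both), r = 0.78 without the 2 farthest mice, and r = 0.85 without the 3 libraries. The windows of Tef and Nr1d1 held no D-box match, and a part of the D-box in these correlations was not tested. Per1 and Dbp had r = 0.57 and rho = 0.63 (permutation p = 0.0112 and 0.00792, adjusted p = 0.0194 and 0.0198), and r = 0.51 without the 2 farthest mice. Its adjusted p was over 0.05 without 0% RPS mouse 5 (r = 0.49), and without the 3 libraries (r = 0.59). Without these libraries the adjusted permutation p was also over 0.05 for Per1 with Per3 (0.0769), Per1 with Nr1d1 (0.0555), and Per2 with Nr1d1 (0.0555). The exceptions named above passed there, at 0.0009 for Nr1d1 with Nr1d2 and 0.0121 for Per1 with Nr1d2. In single diets, over 5 mice each and without a test, r between Per1 and Dbp was 0.80 with 0% and 0.85 with 2% RPS, and 0.08 with 5% and 0.23 with 10% RPS. The difference between diets was not tested.

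**Figure D3:**
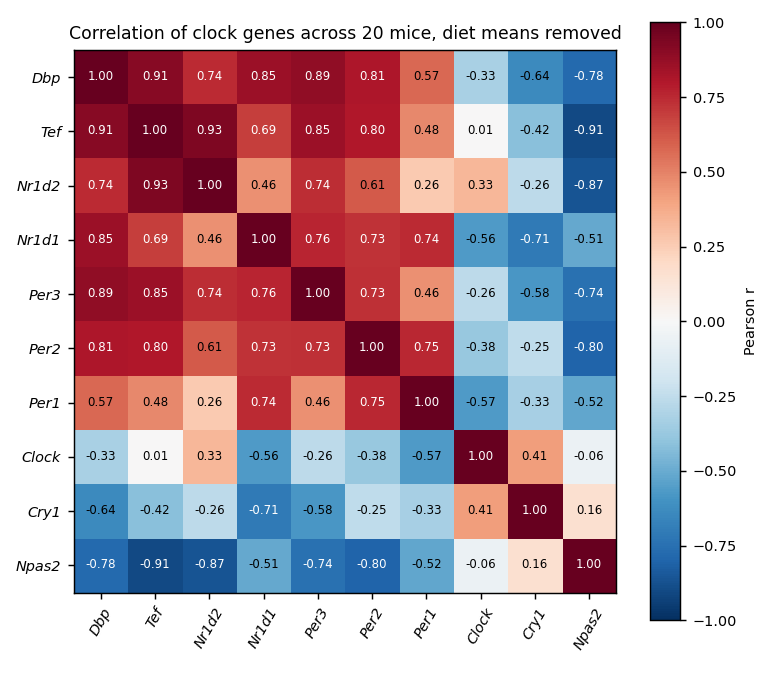
Pearson r between each pair of clock genes over 20 mice (log2 CPM after removal of diet means), from -1 in blue to 1 in red, with r printed in each cell. Dbp, Tef, Nr1d2, Nr1d1, and the 3 Period genes are positive with each other, Npas2 is negative with all 7 of them, and Clock has no pair with an adjusted p of at most 0.05.

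Npas2 was negatively correlated with all 7 of these genes. Npas2 and Tef had r = -0.91 and rho = -0.92 (permutation p = 1e-05 for both, the smallest possible, adjusted p = 0.000225), r = -0.86 without the 2 farthest mice, and r = -0.88 without the 3 libraries. Npas2 and Nr1d2, a known repressor of Npas2, had r = -0.87 and rho = -0.84 (permutation p = 3e-05 and 0.0001, adjusted p = 0.000225 and 0.000585), r = -0.80 without the 2 farthest mice, and r = -0.86 without the 3 libraries. Npas2 and Dbp had r = -0.78 and rho = -0.77 (permutation p = 0.00022 and 0.0005, adjusted p = 0.000862 and 0.0015), r = -0.70 without the 2 farthest mice, and r = -0.83 without the 3 libraries. The relation of Npas2 to Nr1d1 was looser, with r = -0.51 and rho = -0.59 (permutation p = 0.0208 and 0.0125, adjusted p = 0.0347 and 0.0255), r = -0.48 without the 2 farthest mice, and r = -0.65 without the 3 libraries.

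By r over the 20 mice, Cry1 was negatively correlated with Dbp, Nr1d1, and Per3, but none of these 3 relations passed without the 3 libraries of high mitochondrial share. Its relation to Tef did not pass in either set (r = -0.42, rho = -0.30, permutation p = 0.0819 and 0.228, adjusted p = 0.115 and 0.286, and r = -0.32 with an adjusted p of 0.445 without the 3 libraries). Cry1 and Dbp had r = -0.64 and rho = -0.57 (permutation p = 0.00711 and 0.0175, adjusted p = 0.0139 and 0.0291), and r = -0.48 without the 2 farthest mice. The adjusted p exceeded 0.05 when 0% RPS mouse 1 (r = -0.50) or 5% RPS mouse 4 (r = -0.61) was left out, and also without the 3 libraries (r = -0.44, adjusted permutation p = 0.245). Cry1 and Nr1d1 had r = -0.71 and rho = -0.52 (permutation p = 0.00639 and 0.04, adjusted p = 0.0131 and 0.06), r = -0.52 without the 2 farthest mice, and r = -0.51 (adjusted p = 0.195) without the 3 libraries. Cry1 and Per3 had r = -0.59 and rho = -0.56 (permutation p = 0.00481 and 0.0142, adjusted p = 0.0103 and 0.0255), r = -0.53 without the 2 farthest mice, and r = -0.39 (adjusted p = 0.215) without the 3 libraries. In single diets, over 5 mice each and without a test, r between Cry1 and Dbp was -0.83 with 0%, -0.72 with 2%, -0.62 with 5%, and -0.01 with 10% RPS, the diet with the smallest spread of Dbp. The difference between diets was not tested. With Dbp as a covariate the log2 fold change of Cry1 with 10% RPS was -0.63 (SE 0.15, adjusted p = 0.0401 by edgeR). No pair that included Clock had an adjusted p of at most 0.05. For Clock and Dbp r was -0.33 and rho -0.34 (permutation p = 0.209 and 0.177, adjusted p = 0.261 and 0.234), and r was 0.10 without the 2 farthest mice. In single diets r between Clock and Dbp was -0.62, -0.64, 0.45, and 0.47 with 0, 2, 5, and 10% RPS, and without the 3 libraries it was -0.14 over the remaining mice.

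**Figure D4:**
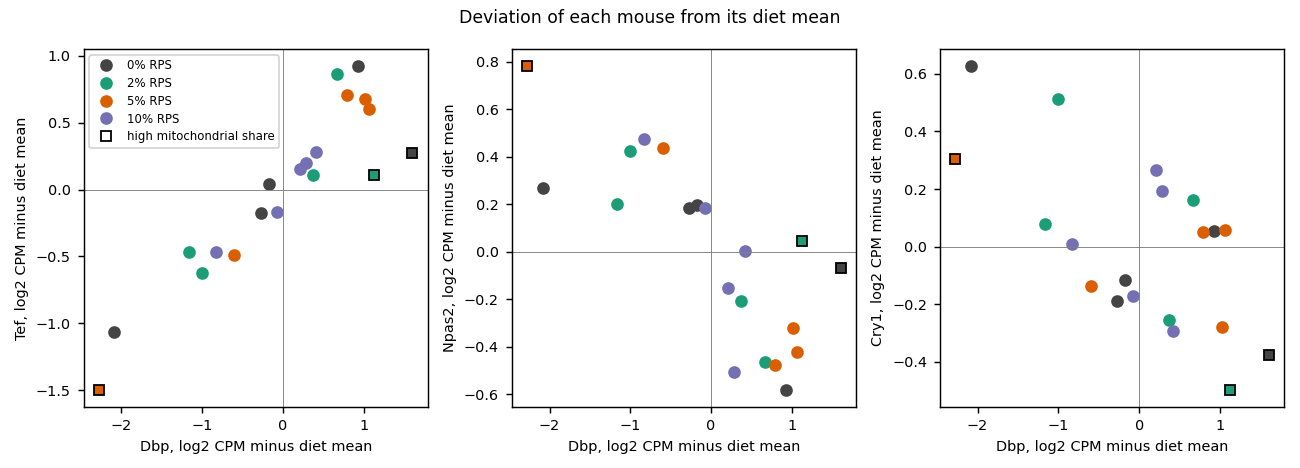
Tef, Npas2, and Cry1 (y axes) against Dbp (x axes) in the 20 mice, each as log2 CPM minus the mean of the diet group. Colors give the diet, and squares mark the 3 libraries of high mitochondrial share. Tef rises with Dbp (r = 0.91), Npas2 falls (r = -0.78), and Cry1 falls with more scatter (r = -0.64).

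The mice could be lined up by a position score, the mean standardized deviation of Dbp, Tef, Per3, Nr1d1, and Nr1d2 minus that of Clock, Npas2, and Cry1. The score is a description of these mice and has no clock time attached. It was lowest in 5% RPS mouse 4 (-2.63), 0% RPS mouse 1 (-2.47), and 2% RPS mouse 4 (-2.0), and highest in 2% RPS mouse 3 (2.02) and 0% RPS mouse 5 (1.95). Low and high mice thus occurred within the same diet. Of these 5 mice, 3 (5% RPS mouse 4, 2% RPS mouse 3, and 0% RPS mouse 5) are those with the libraries of high mitochondrial share, at both ends of the score. The order at the high end depended on Clock, which was low in 2% RPS mouse 3 and 0% RPS mouse 5. With Clock left out, an alternative chosen after seeing the data, 5% RPS mouse 5 was highest (1.76), followed by 0% RPS mouse 3 (1.59) and 0% RPS mouse 5 (1.54), and the lowest remained 5% RPS mouse 4 (-3.35), 0% RPS mouse 1 (-2.76), and 2% RPS mouse 4 (-2.31). Without the 3 libraries of high mitochondrial share the lowest and highest mouse differed by 4.43, against 4.65 with them. The score spanned 4.42 among mice fed 0% RPS, 4.02 with 2%, 4.21 with 5%, and 1.53 with 10% RPS, and without Clock the spans were 4.35, 3.66, 5.11, and 2.1. With Clock kept, 1 of these libraries set an end of the span in each of the 0, 2, and 5% RPS groups. In the same score their other mice ran from -2.47 to 1.22 with 0%, from -2.0 to 0.792 with 2%, and from -1.01 to 1.58 with 5% RPS. Mice fed 10% RPS ran from -0.845 to 0.686, and the difference in span was not tested. In a principal component analysis of the 10 genes after removal of diet means, the first component held 63.8% of the variance and the second 19.6%.

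Across the 15338 genes tested other than these 10, the genes most like Dbp from mouse to mouse were named by r over the 20 mice, without a test. The highest were Ciart (r = 0.95), a repressor of the CLOCK and BMAL1 dimer, Usp2 (0.93), a ubiquitin protease that acts on clock proteins, Fam76a (0.91), Bhlhe41 (0.88), an E-box repressor, and Hlf (0.88), the third PAR bZIP factor. The lowest were Bmal1 (r = -0.90), Nfil3 (-0.90), Igkv8-19 (-0.88), an immunoglobulin gene segment with 0 to 110 counts, Ubqln1 (-0.88), and Adamts4 (-0.86). Of the 21 other pathway genes, 8 had an absolute r of at least 0.7 with Dbp, against 0.763% of all genes, namely Bmal1, Nfil3, Ciart, Usp2, Bhlhe41, Hlf, Cry2 (0.81), and Fbxl21 (0.75). Without the 3 libraries r was 0.93 for Ciart, 0.89 for Usp2, 0.93 for Fam76a, 0.86 for Bhlhe41, 0.94 for Hlf, and 0.75 for Cry2. It was -0.88 for Bmal1, -0.90 for Nfil3, -0.82 for Igkv8-19, -0.76 for Ubqln1, and -0.88 for Adamts4, while that of Fbxl21, a gene with 5 to 32 counts per library, was 0.62. The number of pathway genes at 0.7 or more was again 8, with Btrc, a ubiquitin ligase subunit (0.66 over the 20 mice and 0.78 without the 3 libraries), in place of Fbxl21. The remaining 13 included Rora (0.44) and Rorb (0.26, from 0 to 15 counts per library), activators that compete with the products of Nr1d1 and Nr1d2, and the kinases Csnk1d (-0.29), Csnk1e (-0.36), and Gsk3b (-0.02). Csnk1d (0.26) and Gsk3b (0.18) had the opposite sign without the 3 libraries, while in those 17 mice Csnk1e was at -0.44, Rora at 0.50, and Rorb at 0.45. The letters CACGTG were found in the upstream windows of 3 of the 21 pathway genes, against 6.26% of all windows. The window of Ciart held 3 copies and that of Usp2 held 1. The third gene was Bhlhe40, whose r with Dbp was 0.29 (0.42 without the 3 libraries). The windows of Bmal1, Nfil3, Bhlhe41, Hlf, and Cry2 held none.

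**Figure D5:**
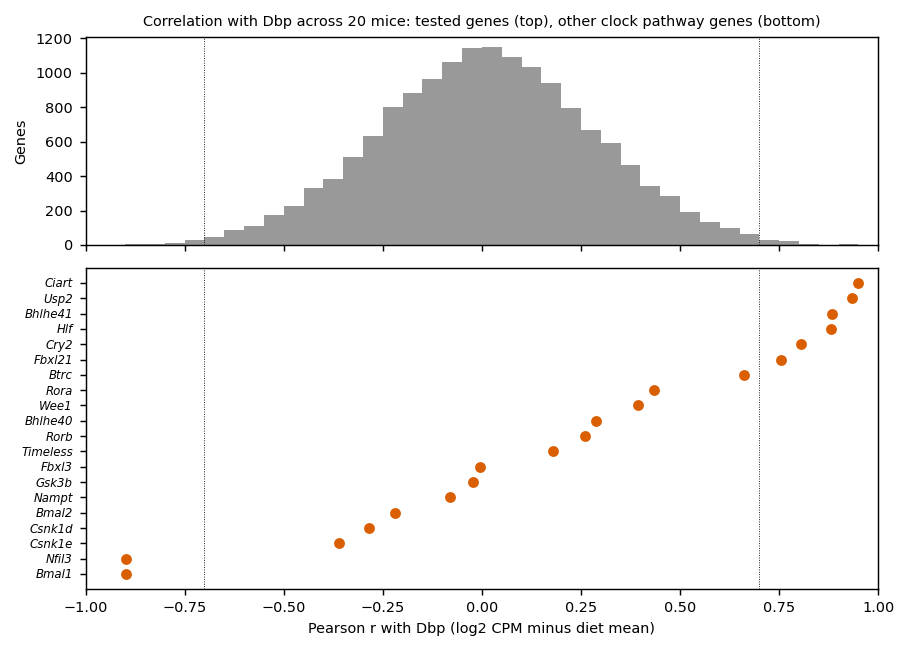
Pearson r with Dbp over 20 mice (log2 CPM after removal of diet means). Top, number of genes in bins of r among the 15338 tested genes other than the 10 clock genes. Bottom, 20 of the 21 other clock pathway genes, in order. Dotted lines mark r of -0.7 and 0.7, beyond which lie 0.763% of all genes and 8 of the 21 pathway genes.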

How the data were processed

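RNA from the cecum of 20 mice was sequenced by the authors from stranded mRNA libraries, as single-end reads that were quality trimmed and then mapped to GRCm39 and counted in the CLC Genomics Workbench. The authors deposited raw counts per gene, between 14967798 and 42687283 per mouse. The annotation release and the strand setting are not given in the sources used here. The labels give diet and mouse number for each sample, and p-values measure the spread between these mice.

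Gene symbols and upstream windows came from GENCODE mouse annotation on GRCm39, in which 19827 of 19887 identifiers were found. Counts were filtered (filterByExpr, minimum count 10, minimum total 15), TMM scaled, and tested over all 20 mice with edgeR 4.0.16 in R 4.3.3 by robust quasi-likelihood F tests, 2-sided, with Benjamini-Hochberg adjustment over 15348 genes. A gene was called at an adjusted p of at most 0.05 and, against 0% RPS, at least 1.5-fold. CPM are TMM scaled, log2 CPM used a prior count of 2, and levels per kilobase used the canonical transcript. Correlations were computed in Python 3.11.15 with numpy 2.4.6. Named genes were all 10 clock genes, and pathway genes past a threshold of any test or with an absolute r of at least 0.7 with Dbp, beside the 5 highest and 5 lowest in r. Bmal1, Nfil3, Rora, Rorb, and the kinases are named as members of the pathway list, of which 1 gene is counted but not reported here. The alternatives were DESeq2 1.42.0, its size factors, no low-count filter, no fold threshold, a fit of 2 diets, the rank of the dose, a prior count of 0.5, Spearman's rho, no removal of diet means, and each mouse left out. The fits without 3 libraries and with covariates were chosen after seeing the data. The genes, lists, and rules were chosen with earlier results of these data known. The edgeR and permutation steps were tested on simulated data.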

Additional observations from a re-analysis of the deposited data

Results flagged for a closer look

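In 3 of 40 groups of 5 mice (10 genes in 4 diets), 1 mouse stood apart from the other 4 by more than Dixon's critical value of 0.71 for the gap over the range. Chance gives about 1 in 20 such groups. Clock was low in 0% RPS mouse 5, at 5.55 log2 CPM, and in 2% RPS mouse 3, at 5.35 log2 CPM. Both libraries had a high mitochondrial share, at 13.0 and 13.8% of counts. Nr1d2 was low in 10% RPS mouse 3, at 6.33 log2 CPM, and the mitochondrial share of that library was 9.71%. The same mouse had the lowest Dbp (13.7 CPM) and Tef (78.7 CPM) levels of its diet group.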

How the results depend on the processing

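No paired analysis was possible because no mouse number occurs in more than 1 diet. The number of clock genes called with 10% RPS was 1, and it was 0 without the low-count filter (Cry1 adjusted p = 0.0582), in a fit of the 2 diets alone (0.0686), and with B cell or smooth muscle markers as a covariate. It was 0 to 1 with each mouse left out in turn, being 0 in 8 of 10 such fits. Cry1 remained called with DESeq2 (0.00694) and with DESeq2 size factors (0.0474). In the trend test none was called, and 1, Cry1, was called with the rank of the dose (0.0339), with DESeq2 (0.0175), and without the 3 libraries of high mitochondrial share (0.0243), and 0 to 1 with each mouse left out, being 1 without 2% RPS mouse 3, 2% RPS mouse 5, or 10% RPS mouse 4. DESeq2 called 1 in the test of any difference among diets. The cause was not tested.

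Estimates of genes that were not called changed sign with 10% RPS, each within 1 SE of 0 where it did. Dbp was -0.000584 with DESeq2 size factors. Without the 3 libraries Nr1d1 was 0.0534 and Nr1d2 -0.000881. With Dbp as a covariate Clock was 0.017, Per2 -0.0255, Nr1d2 -0.0836, and Tef -0.00558. With B cell markers Clock was 0.0656 and Npas2 -0.0623. With smooth muscle markers Clock was 0.137, Npas2 -0.0376, Per2 -0.0132, and Dbp -0.149. With each mouse left out, Clock ran from -0.0906 to 0.0221, Per2 from -0.0451 to 0.28, Per3 from -0.0652 to 0.428, Nr1d1 from -0.366 to 0.0544, Nr1d2 from -0.0768 to 0.247, Dbp from -0.264 to 0.543, and Tef from -0.0405 to 0.441. Per1 and Npas2 kept their sign in these fits, but ran from -0.554 to -0.241 and from 0.0596 to 0.302.

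The number of correlated pairs ran from 24 to 30 with each mouse left out, and was 25 without removal of diet means. Dbp and Nr1d2 lost their adjusted p without 5% RPS mouse 4 (r = 0.60, against 0.74 with all mice and 0.93 without the 3 libraries), and Dbp and Per1 without removal of diet means (r = 0.47). The SD of Clock was 0.147 without 2% RPS mouse 3. Over all genes, 160 were called with 10% RPS, 368 by DESeq2, 98 in a fit of 2 diets, 317 without the 3 libraries, 101 with the B cell and 0 with the smooth muscle covariate. DESeq2 called 244 against 30 with 5% RPS, 5 against 0 with 2% RPS, 474 against 14 for any difference, and 680 against 170 in the trend, where the rank of the dose gave 539 and no low-count filter 103. Low counts limit Per3, Fbxl21, and Rorb.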
